A study of Homo sapiens with 6 samples.

Results

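Metallothioneins are small, cysteine-rich proteins that bind zinc, copper and cadmium, and most human ones are encoded side by side on chromosome 16. Here 8 of those genes (MT1A, MT1E, MT1F, MT1G, MT1H, MT1M, MT1X and MT2A) were followed together with MTF1, which encodes the zinc-sensing transcription factor that switches them on, and SLC30A1, which encodes a zinc exporter of the plasma membrane. All 10 symbols were chosen by name, as 8 metallothionein genes and 2 partners, with earlier results of these data known. All 10 were found among the 26484 gene symbols of the count tables. The libraries came from MCF10CA1a, a malignant human breast epithelial line derived from the MCF10A lineage by way of activated HRAS. Cells were grown for 5 days on dishes coated with growth factor-reduced Matrigel over a soft gel of 500 Pa or a stiffer gel of 8000 Pa, in 3 biological replicates each, numbered 1 to 3. Both groups shared a DMEM/F12 medium with 5% horse serum, 10 mM HEPES, 0.029 M sodium bicarbonate, penicillin/streptomycin and fungizone. Both also shared Matrigel at 0.14 mg/ml, a medium change on day 4 and RNA on day 5. The sequenced RNA is called cytosolic in one label and total RNA in another. A single cell line stands for both groups, so its values describe that line alone.

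As background, free zinc that rises in a cell binds the zinc fingers of MTF1, which then attaches to short promoter sequences called metal response elements. The metallothioneins made in response hold the metal, and SLC30A1, another known target of MTF1, carries zinc out. Glucocorticoids and electrophiles also induce these genes, and in mammary tissue metallothionein protein is known from myoepithelial cells and from a share of carcinomas.

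The metallothionein members lie on chromosome 16 from 56608199 to 56684196 in GRCh38, a stretch of 76.0 kb in GENCODE 29, and each of the 8 has 3 exons. MTF1 lies on chromosome 1 from 37809567 to 37859620 and SLC30A1 on chromosome 1 from 211571568 to 211578742. RefSeq promoter sequences were at hand for 5 of the 10 genes. In them the metal response element core was searched as TGCACNC and TGCGCNC on both strands in the 250 bases before the RefSeq start. RefSeq and GENCODE starts can differ. The MT2A window lies inside the GENCODE gene, and the MT1X and MTF1 windows run partly into theirs. The MT1H window ends at the GENCODE start, and the SLC30A1 window lies upstream of the GENCODE start without reaching it. Bases next to that GENCODE start of SLC30A1 were therefore not searched, and core numbers compare these windows only. Promoters of 3 cluster genes and of SLC30A1 are shown because the number of these cores separates them. Capitals mark every match, and no 2 matches overlapped.
MT2A, chr16:56608334-56608583, + strand, GRCh38.p14: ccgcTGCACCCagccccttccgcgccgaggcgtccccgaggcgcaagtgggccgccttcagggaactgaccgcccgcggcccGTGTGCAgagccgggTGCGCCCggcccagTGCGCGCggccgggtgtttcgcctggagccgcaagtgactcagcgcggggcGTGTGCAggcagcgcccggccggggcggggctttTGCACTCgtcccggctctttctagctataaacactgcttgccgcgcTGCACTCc
MT1X, chr16:56682220-56682469, + strand, GRCh38.p14: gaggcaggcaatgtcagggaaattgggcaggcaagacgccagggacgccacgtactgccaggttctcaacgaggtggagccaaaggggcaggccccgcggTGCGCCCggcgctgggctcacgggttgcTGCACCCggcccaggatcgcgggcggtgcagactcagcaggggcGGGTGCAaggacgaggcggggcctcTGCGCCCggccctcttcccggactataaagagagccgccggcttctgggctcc
MT1H, chr16:56669564-56669813, + strand, GRCh38.p14: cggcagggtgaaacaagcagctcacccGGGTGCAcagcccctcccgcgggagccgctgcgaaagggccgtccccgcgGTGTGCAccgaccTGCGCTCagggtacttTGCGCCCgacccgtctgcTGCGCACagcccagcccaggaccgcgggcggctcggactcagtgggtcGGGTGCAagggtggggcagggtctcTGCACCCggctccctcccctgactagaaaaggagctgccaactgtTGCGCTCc
SLC30A1, chr1:211579162-211579411, - strand, GRCh38.p14: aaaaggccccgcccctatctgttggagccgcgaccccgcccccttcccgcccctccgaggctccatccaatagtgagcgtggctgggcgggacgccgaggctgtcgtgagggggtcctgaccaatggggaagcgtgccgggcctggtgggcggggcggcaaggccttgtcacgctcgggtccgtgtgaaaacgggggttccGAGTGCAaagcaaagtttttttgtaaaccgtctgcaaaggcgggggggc
MT1H held 8 cores, MT2A 7, MT1X 4, SLC30A1 1 and MTF1 0. Of 35116 RefSeq promoters of the same length, 24.8% held at least 1 core, 0.370% at least 4, 0.0313% at least 7 and 0.0171% at least 8. A match is a run of letters and not a measured binding site. MT1H, with the most matches of the 5, had 0 counts in every library.

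**Figure D1:**
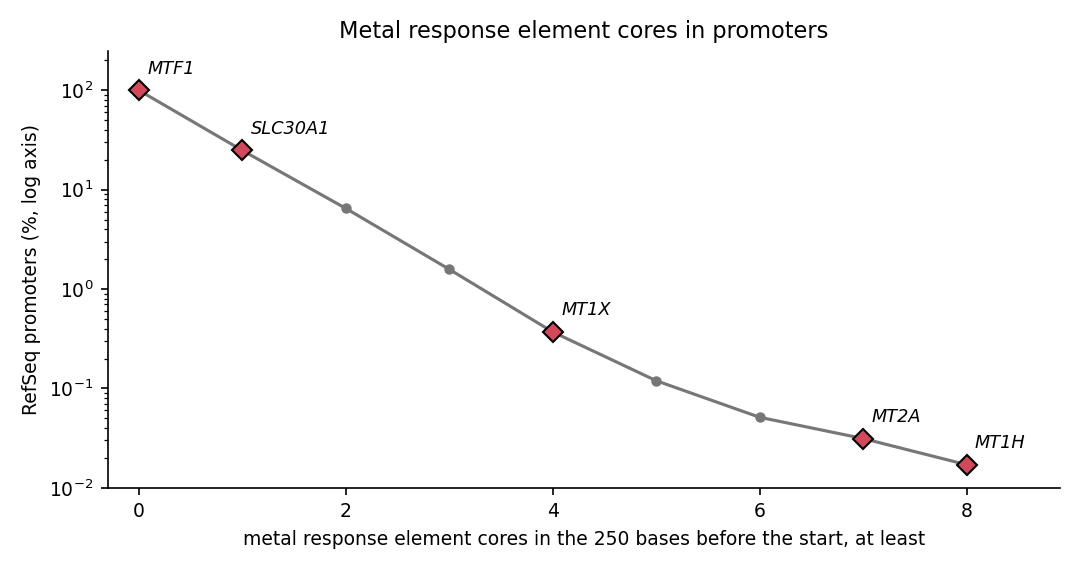
Share of RefSeq promoters (vertical axis, percent, log scale) that hold at least the given number of metal response element cores in the 250 bases before the start (horizontal axis). Diamonds mark the 5 genes with a promoter sequence, and MT2A and MT1H stand at 7 and 8 cores, where 0.0313% and 0.0171% of promoters remain.

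The coding sequences of the family are close copies, which bears on how reads were assigned to each gene. Those of MT2A, MT1X and MT1E, which held nearly all metallothionein counts, and of MT1G, the closest to MT2A, are shown from GENCODE 29. Each is 186 bases long, and capitals mark bases that differ from MT2A.
MT2A: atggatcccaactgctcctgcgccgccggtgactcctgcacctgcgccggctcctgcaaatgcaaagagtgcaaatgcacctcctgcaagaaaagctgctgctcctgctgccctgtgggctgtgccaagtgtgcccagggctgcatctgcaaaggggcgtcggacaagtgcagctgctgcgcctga
MT1X: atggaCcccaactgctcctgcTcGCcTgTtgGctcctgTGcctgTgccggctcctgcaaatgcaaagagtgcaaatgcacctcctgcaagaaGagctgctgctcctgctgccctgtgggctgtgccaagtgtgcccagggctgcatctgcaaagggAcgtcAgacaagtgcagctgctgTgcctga
MT1E: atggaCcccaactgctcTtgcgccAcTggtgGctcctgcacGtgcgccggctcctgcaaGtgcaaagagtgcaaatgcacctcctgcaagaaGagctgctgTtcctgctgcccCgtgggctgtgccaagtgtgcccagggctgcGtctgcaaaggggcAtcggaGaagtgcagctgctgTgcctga
MT1G: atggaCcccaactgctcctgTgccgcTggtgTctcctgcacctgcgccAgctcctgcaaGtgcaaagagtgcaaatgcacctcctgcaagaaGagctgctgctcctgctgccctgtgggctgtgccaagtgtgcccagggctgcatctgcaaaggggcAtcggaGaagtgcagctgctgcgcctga
MT1X and MT1E each differed from MT2A at 14 bases and MT1G at 9. The longest stretch shared exactly was 96 bases, between MT1G and MT1X, and MT2A shared 65 bases with MT1G, 63 with MT1X and 32 with MT1E. Over whole transcripts, the share of 75-base pieces also present in a transcript of another gene was 0.00% for MT2A, 0.794% for MT1E, 6.63% for MT1G, 10.8% for MT1H and 31.6% for MT1X. That of MT1H was with MT1HL1, also at 0 counts. Part of the MT1X share was with AC026461.1, which overlaps MT1X on the same strand in GENCODE 29. Read length and the treatment of multi-mapping reads were not given in the sources used here. Counts of single copies, the 0 of MT1H included, are therefore uncertain, and the sum over the family was analysed beside them.

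Library totals ran from 8305601 to 18779742 counts. Epithelial markers (EPCAM, CDH1 and keratins) summed to 11806 CPM or more in every library, while 6 fibroblast markers summed to 0.950 to 4.65 CPM and 5 leukocyte markers to 10.2 to 24.5 CPM. Endothelial markers summed to 100.2 to 156 CPM at 500 Pa and 213 to 258 CPM at 8000 Pa, and 4 adipocyte markers to 1.14 to 3.58 and 4.98 to 12.8 CPM, with ADIPOQ and LEP at 0. With stiffness alone 0 of these passed, and with the replicate number as a block PECAM1, CDH5 and FABP4 did (edgeR adjusted p = 0.00537, 0.000314 and 0.000526). Their part in the values below was not tested. No pair of same-group libraries agreed within sampling noise, so all 6 were kept.

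In these cells the family was carried by MT2A, the main metallothionein of most human tissues. Per kilobase of exon, MT2A stood at 167 to 500.0 CPM (counts per 1e6 library counts after TMM scaling), MT1X at 26.2 to 82.1 and MT1E at 12.6 to 36.3. MT2A exceeded MT1X by 5.29 to 8.56 times in single libraries, and MT1X exceeded MT1E in 6 of 6 libraries by 1.56 to 2.47 times. The other counted members were lower on this per-length scale, with MT1F at 1.44 to 3.50, MTF1 at 1.29 to 2.57, MT1G at 0.213 to 1.99 and SLC30A1 at 0.131 to 0.388. MT1F was above MTF1 in 2 of 6 libraries, so the order of these 2 was not fixed. SLC30A1 lay below the whole range of both, while MTF1 was above MT1G in 6 of 6 and MT1G above SLC30A1 in 5 of 6.

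MT1A, MT1H and MT1M had 0 counts in all 6 libraries. A count of 0 allows up to 3 counts, or 0.160 to 0.361 CPM across the libraries before TMM scaling, a limit for counting error only. After TMM scaling, 3 counts in 500 Pa replicate 3 are 0.429 CPM. The same was true of MT3 and MT4, the brain and squamous epithelium members, of MT1B and of the pseudogenes MT1L, MT1JP, MT1DP and MT1IP. Of 15 family genes of the region in the tables, 10 were at 0 and 5 were counted. The counted genes are interspersed with uncounted ones: MT1E lies between MT1L and MT1M, both at 0, and MT1X next to MT1IP. Of the 3 members at 0, 5.76% of the 50-base pieces of MT1A, 7.05% of those of MT1M and 20.4% of those of MT1H were also in another gene. For MT1X, which was counted, the share was 45.1%. These shares cover exact matches only, and near matches were not searched.

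**Figure D2:**
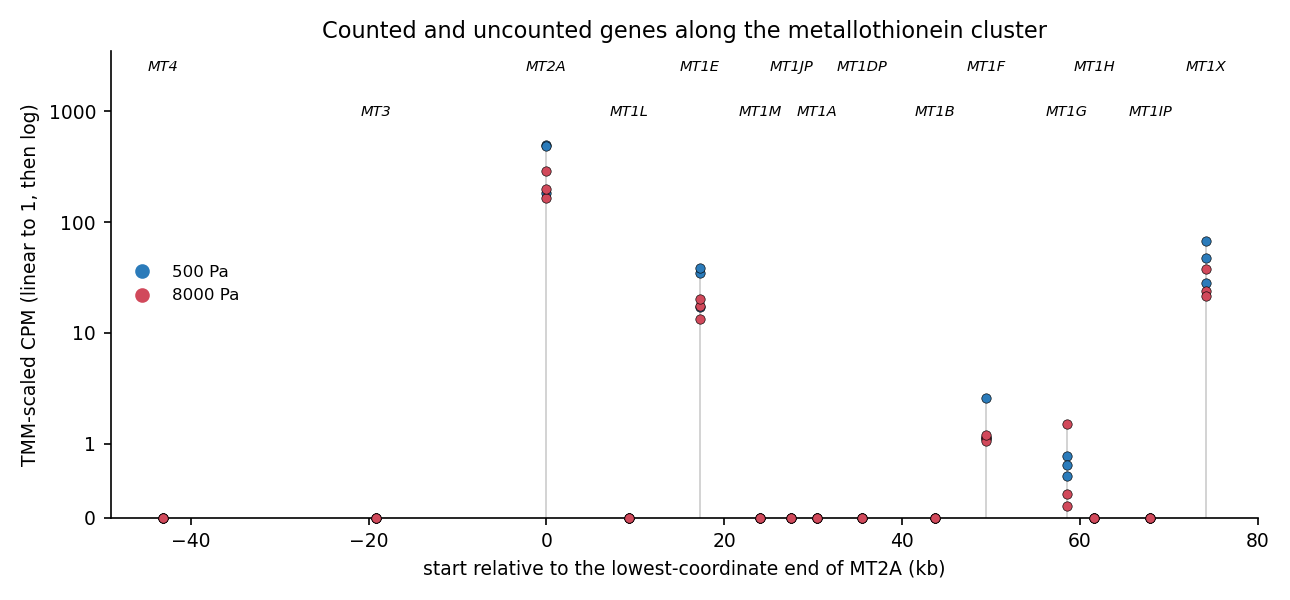
TMM-scaled CPM (vertical axis, linear from 0 to 1 and log above) of each family gene in the tables at its place along the cluster (horizontal axis, kb from the low-coordinate end of MT2A), 1 point per library, blue for 500 Pa and red for 8000 Pa. MT2A, MT1E, MT1F, MT1G and MT1X carry counts, and the other 10 genes sit at 0.

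The comparison of 500 Pa with 8000 Pa asked whether stiffness altered these transcripts. MT2A had 496, 487 and 181 CPM in 500 Pa replicates 1 to 3 and 165, 197 and 289 CPM in 8000 Pa replicates 1 to 3, from 1268 to 8868 counts a library. Replicates 1 and 2 on soft gels were the 2 highest, but replicate 3 on soft gels lay inside the range of the stiff gels, so the groups overlapped. The means were 388 ± 179 CPM (SD, n = 3) at 500 Pa and 217 ± 64.3 CPM (SD, n = 3) at 8000 Pa. The log2 fold change of 8000 Pa over 500 Pa was -0.84 (SE 0.36), and MT2A did not pass at a false discovery rate of 0.05 (adjusted p = 1.00, edgeR quasi-likelihood test).

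MT1X, an inducible member at the other end of the cluster, had 67.6, 47.3 and 28.4 CPM at 500 Pa and 23.9, 21.6 and 37.9 CPM at 8000 Pa. Its pattern was that of MT2A, with soft replicates 1 and 2 highest and soft replicate 3 within the stiff range. MT1E had 35.0, 38.2 and 17.1 CPM at 500 Pa against 13.3, 17.6 and 20.4 CPM at 8000 Pa, and again only soft replicates 1 and 2 stood above every stiff library. The log2 fold changes were -0.79 (SE 0.36) for MT1X and -0.82 (SE 0.36) for MT1E, and neither passed (adjusted p = 1.00 each, edgeR).

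The remaining counted members rested on few reads. MT1F had 2.57, 1.12 and 1.14 CPM at 500 Pa and 1.12, 1.06 and 1.20 CPM at 8000 Pa, from 8 to 46 counts a library. Soft replicate 1 alone stood apart, and without it the log2 fold change was 0.0090 in place of -0.57. MT1G had 15, 5 and 5 counts at 500 Pa and 2, 3 and 15 at 8000 Pa, too few for the test. Its highest value was in 8000 Pa replicate 3, at 1.495 CPM with a 95% exact Poisson interval of 0.837 to 2.47, and its lowest in 8000 Pa replicate 1, at 0.160 CPM with an interval of 0.0193 to 0.577 (counting error only).

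**Figure D3:**
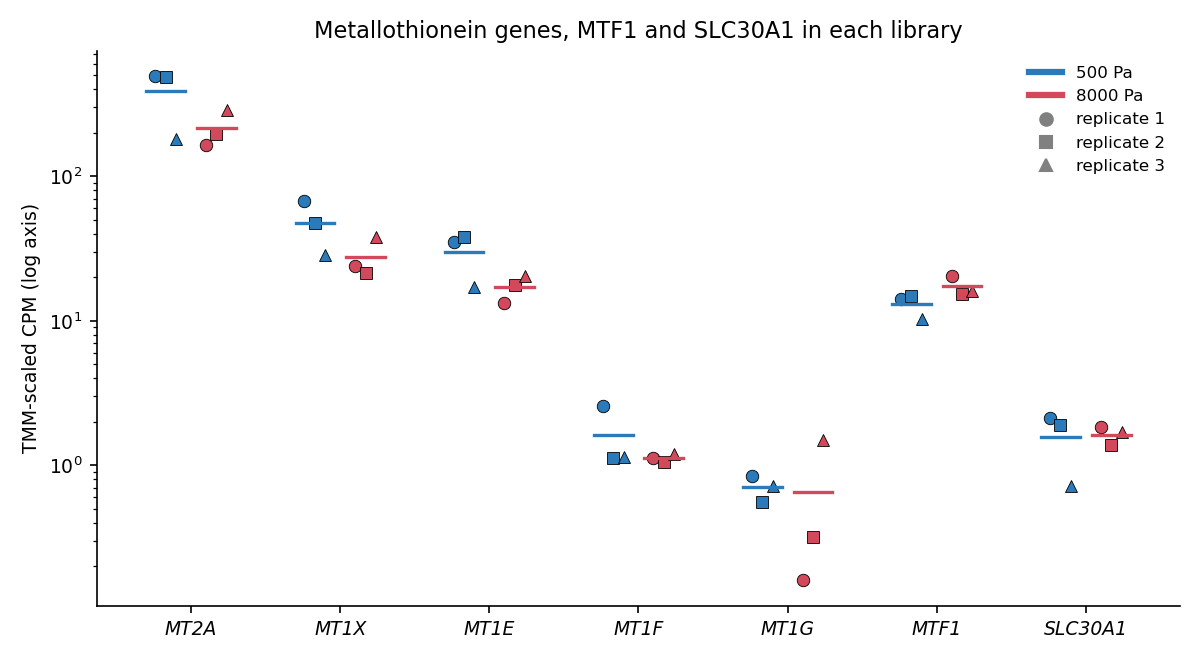
TMM-scaled CPM (vertical axis, log scale) of the 7 counted members in each library; blue is 500 Pa, red is 8000 Pa, marker shapes give the replicate number and horizontal lines the group means. For MT2A, MT1X and MT1E, soft replicates 1 and 2 lie above all stiff libraries and soft replicate 3 lies among them.

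MTF1, the zinc sensor of the pathway, had 14.2, 14.8 and 10.3 CPM at 500 Pa and 20.4, 15.3 and 16.1 CPM at 8000 Pa. All stiff libraries lay above all soft ones, by a margin of 14.8 against 15.3 CPM at the nearest, and 6.87% of the 11517 tested genes also had groups that did not overlap. Its log2 fold change was 0.40 (SE 0.33) and did not pass (adjusted p = 1.00, edgeR). SLC30A1 had 2.12, 1.90 and 0.715 CPM at 500 Pa and 1.84, 1.37 and 1.69 CPM at 8000 Pa, from 5 to 38 counts a library. Its groups overlapped, soft replicate 3 was the lowest, and the log2 fold change was 0.01 (SE 0.54, adjusted p = 1.00 by edgeR).

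Over the listed genes, 6 of 10 had enough counts for the test, and 0 of the 6 passed in edgeR, where 0.00% of 11517 genes did. DESeq2 and limma-voom also called 0 of the 6. At an unadjusted p under 0.05, MT2A, MT1X and MT1E, 3 of the 6, were lower at 8000 Pa in edgeR and DESeq2. In edgeR 2.45% of the 11517 tested genes had such a p, and 0.981% in that direction. In DESeq2 357 of the 11517 had it. With limma-voom MT1E alone had it, and 328 genes in all. With library size alone 0 of the 6 had it in edgeR, and 337 genes in all. With a GC offset MT2A no longer had it, and 667 genes in all did. Leaving out single libraries, 11639 to 11887 genes were tested. Without 500 Pa replicate 1 or 2, 0 of the 6 had such a p, against 171 and 662 genes in all. Without 8000 Pa replicate 1 or 2 it was again 0 of the 6, against 309 and 178. Without 500 Pa replicate 3 or 8000 Pa replicate 3 the same 3 had it, against 230 and 1052. The 3 belong to 1 gene family and were measured in the same 6 libraries. The median log2 fold change was -0.80 over the 4 tested metallothioneins and 0.01 over all tested genes. In bulk RNA, fewer cells that make a transcript and less of it per cell cannot be told apart. The labels call the replicates biological without saying how they were kept separate.

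Summed over the family, the counts were 601, 574 and 229 CPM at 500 Pa and 203, 237 and 350 CPM at 8000 Pa. Apart from any reads left uncounted, the sum does not depend on how reads were divided among the 8 copies. Its log2 fold change was -0.83 (SE 0.35) and did not pass (adjusted p = 1.00, edgeR). As a share of all counts the family held 0.0573%, 0.0603% and 0.0193% in the soft libraries and 0.0246%, 0.0248% and 0.0327% in the stiff ones. Wilson 95% intervals, which cover counting error only and not the spread between cultures, were 0.0183% to 0.0202% for soft replicate 3 and 0.0586% to 0.0619% for soft replicate 2. The means of 0.0456% ± 0.0229 and 0.0273% ± 0.00462 (SD, n = 3 each) differed by less than the spread of the soft libraries (two-sided exact permutation p = 0.4, where 0.1 is the smallest possible). Single soft libraries moved that value. Without soft replicate 3 the difference of stiff minus soft was -0.0315 percentage points in place of -0.0183, and without soft replicate 2 it was -0.0109.

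Taken by replicate number, the difference changed sign. The summed metallothionein level was 2.96-fold lower on the stiff gel in replicate 1 and 2.42-fold lower in replicate 2, but 1.53-fold higher in replicate 3. MT2A, the dominant copy, gave log2 differences of -1.59, -1.31 and 0.67, MT1X -1.50, -1.13 and 0.41, and MT1E -1.40, -1.12 and 0.25. These 3 genes thus shared the sign in every replicate, and 10.3% of all tested genes also were lower in replicates 1 and 2 and higher in replicate 3. SLC30A1 had the same signs at -0.21, -0.47 and 1.25, while MTF1 was above 0 in each, at 0.52, 0.05 and 0.65. In replicate 3 the soft library was the low one: 181 CPM of MT2A against 487 or more in the other two soft libraries. Of all tested genes, 3.90% were likewise at least 2-fold lower in soft replicate 3 than in each of the other soft libraries.

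**Figure D4:**
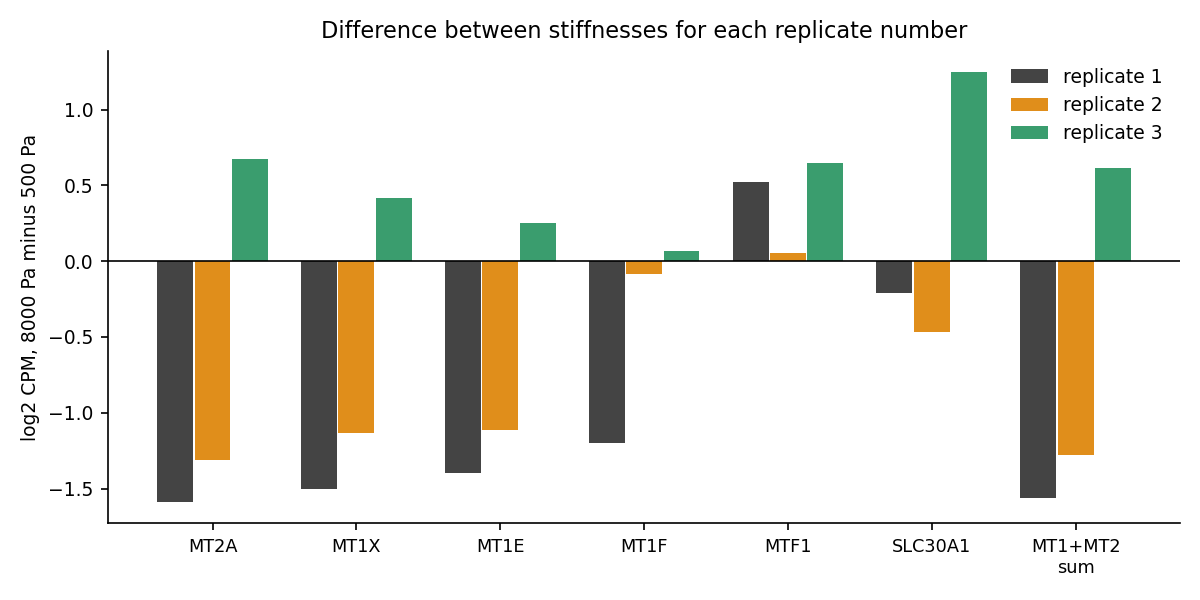
Log2 CPM at 8000 Pa minus 500 Pa (vertical axis) for each replicate number, for the tested members and the family sum; MT1G, with 2 to 15 counts a library, is not drawn. Bars of the metallothioneins point down for replicates 1 and 2 and up for replicate 3, and those of MTF1 point up for all 3.

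With the replicate number as a block, the sum had a log2 fold change of -0.77 (SE 0.25, adjusted p = 0.148 by edgeR). DESeq2 with the same block gave -0.77 with a larger SE of 0.56 (adjusted p = 0.776). The edgeR SE does not measure the spread of the differences by replicate number, which changed sign. Again 0 of the 6 tested genes passed in edgeR, where 0.530% of all genes did. At an unadjusted p under 0.05 the block gave the same 3 of 6 in edgeR, against 10.6% of all tested genes and 6.12% in that direction. Without replicate 3 it again gave these 3, where 530 of 11699 tested genes had such a p. Without replicate 1 it gave 0 members, where 622 of 11418 genes did, and without replicate 2 also 0, where 1506 of 11688 did. DESeq2 with the block gave MT1E and MT1X alone, where 1032 of 11517 genes did. The block with a GC offset gave the same pair, where 1422 of 11517 genes did. The block with library size alone gave MT1X and MT2A, where 1215 of 11517 did. The 3 abundant copies had edgeR adjusted p-values of 0.143 (MT2A), 0.181 (MT1X) and 0.204 (MT1E). In DESeq2 with the block these were 0.790, 0.421 and 0.416. Leaving out replicate 3 the blocked value of the sum was -1.37 (adjusted p = 0.148), and leaving out replicate 1 it was -0.31 (adjusted p = 1.00). Base composition moved with the replicate 1 difference: across genes, its Spearman rho with transcript GC content was -0.62, against 0.06 and 0.02 in replicates 2 and 3. MT2A transcripts hold 63.0% GC, MT1F 59.9%, MT1X 54.3%, MT1E 53.5%, MTF1 46.7% and SLC30A1 38.0%, against a median of 48.3% over tested genes. With a GC offset added to the block, the log2 fold change was -0.42 for MT2A in place of -0.77, -0.46 for the sum, -0.67 for MT1X and -0.72 for MT1E, and 0 members passed, where 0.755% of genes did.

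**Figure D5:**
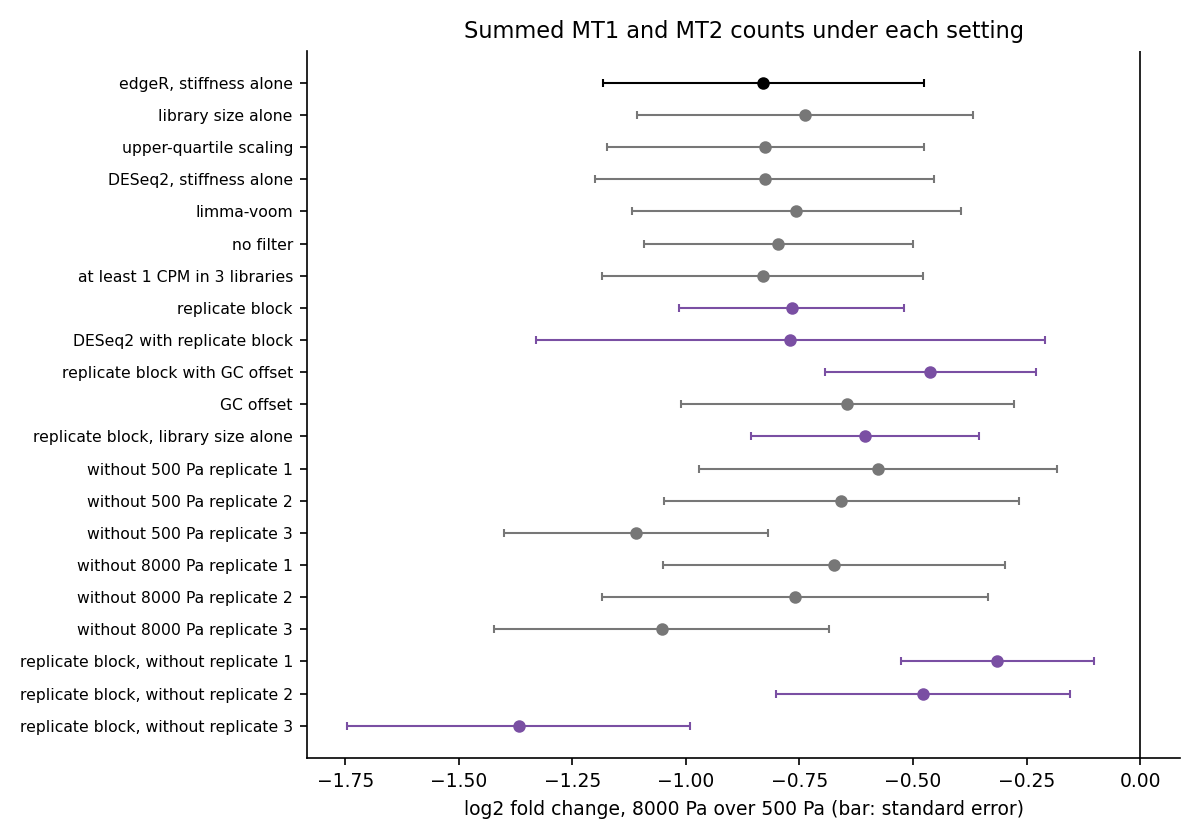
Log2 fold change of the summed MT1 and MT2 counts, 8000 Pa over 500 Pa (horizontal axis), with its standard error, under the main test (black), other unpaired settings (grey) and settings with the replicate block (purple). All 21 values are below 0, from -1.37 without replicate 3 to -0.31 without replicate 1.

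The make-up of the family was taken as each gene's share of its counts. MT2A held 79.3% to 84.8% of metallothionein counts, MT1X 8.23% to 12.4% and MT1E at least 5.82%, and the 3 together 99.2% or more. By stiffness, MT2A held 82.2% ± 2.79 at 500 Pa and 82.2% ± 0.949 at 8000 Pa (SD, n = 3 each). The family total differed 2.96-fold between its highest and lowest library. The ratio of MT1X to MT1E counts was lowest in the replicate 2 libraries of both stiffnesses, at 1.24 and 1.22, and 1.66 to 1.93 in the other 4.

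Of genes outside the list with a mean of at least 5 CPM, the 5 whose log2 profile over the 6 libraries was closest to that of the family sum were KRT5, ASNS, PRKAR1B, RPS10 and C2orf70. KRT5, a basal keratin, had a root mean square difference of 0.30 from the centred profile, and ASNS, asparagine synthetase, 0.31, where the median of 8700 genes was 0.71. KRT5 stood at 887, 819 and 598 CPM at 500 Pa and 378, 502 and 639 CPM at 8000 Pa. The 5 basal mammary markers, KRT5 among them, summed to 11895 to 15712 CPM at 500 Pa and 7192 to 12127 CPM at 8000 Pa, most of it KRT15 at 10566 ± 1083 and 8251 ± 2095 CPM. TP63, the basal transcription factor of that list, had 3.66 ± 1.38 CPM at 500 Pa and 7.61 ± 3.93 CPM at 8000 Pa, the other direction. With or without the block 0 of the 5 passed, and their part in the metallothionein values was not tested. On the same measure MT2A itself was at 0.03, MT1E at 0.16 and MT1X at 0.21. These genes are parts of the sum, and MT2A is most of it, so the closeness of MT2A was built in. MT1F lay at 0.50, SLC30A1 at 0.51 and MTF1 at 0.71, no closer than the median gene in the case of MTF1. MT1F and SLC30A1, with group means of 1.12 to 1.64 CPM, lay below the 5 CPM minimum of the ranked genes. The 1 CPM added before taking logs flattens such low profiles, so these 2 values do not compare directly with the median.

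The other zinc genes showed no passing member. Of the further SLC30 exporters and vesicle transporters, 4 of 10 were tested and 0 passed in either fit, with a median log2 fold change of 0.07. SLC30A6 and SLC30A7, which load zinc into the secretory pathway, had 45.4 ± 19.2 and 45.2 ± 4.77 CPM at 8000 Pa against 36.6 ± 10.9 and 40.6 ± 12.9 at 500 Pa. Of 14 SLC39 importers, 10 were tested, 0 passed and the median was 0.11. SLC39A4, the intestinal zinc importer, had 33.3 ± 13.5 against 48.6 ± 14.998 CPM, SLC39A13 37.0 ± 16.1 against 50.4 ± 15.99 CPM and SLC39A11 69.6 ± 4.15 against 54.7 ± 10.4 CPM.

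Genes of other metals and of shared inducers also gave 0 calls in both fits. The copper list had 16 tested genes with a median of 0.17. In it CP, the copper-carrying ferroxidase ceruloplasmin, had 36.7 ± 10.7 against 21.7 ± 3.39 CPM (adjusted p = 0.203 with the block, edgeR), and COX17, a mitochondrial copper chaperone, 102 ± 10.8 against 82.1 ± 25.7 CPM. The iron list had 13 tested genes and a median of 0.02, with the transferrin receptor TFRC at 173 ± 119.9 against 107 ± 30.8 CPM and HFE at 14.8 ± 3.28 against 9.88 ± 1.36 CPM. Of 14 electrophile and heavy metal stress genes the median was 0.13. ATF3, a stress-induced transcription factor, had 4.98 ± 0.788 CPM at 8000 Pa and 9.004 ± 1.43 at 500 Pa, and OSGIN1, an oxidative stress gene, 19.3 ± 7.502 against 32.5 ± 13.8 CPM. Of 9 glucocorticoid-induced genes the median was 0.16, with GLUL at 384 ± 48.8 against 281 ± 64.4 CPM, CRISPLD2 at 4.81 ± 0.801 against 3.52 ± 0.640 CPM and TSC22D3 at 53.6 ± 17.1 against 63.9 ± 9.24 CPM.

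Genes that flank the cluster on chromosome 16q gave 0 calls. Of 20 tested neighbours 8 had a log2 fold change below 0, the median was 0.08 and the medians by replicate number were 0.00, 0.04 and 0.12, where the family sum had -1.56, -1.28 and 0.61. The 2 of smallest p were ARL2BP, at 54.8 ± 8.93 against 42.0 ± 12.96 CPM, and RSPRY1, at 24.8 ± 6.41 against 17.8 ± 2.30 CPM, and 0 passed in either fit.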

How the data were processed

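RNA sequencing libraries of MCF10CA1a cells on 500 Pa and 8000 Pa gels (3 each) formed 2 groups by labelled stiffness. Per the submitters' processing notes, HISAT2 2.1.2, HTSeq 0.11.4, limma and DESeq2 were used with GRCh38. Neither annotation release nor strandedness was given in the sources used here. For each library the authors deposited raw counts, which are not normalized, and TMM-scaled log2 values per the file headers. The authors' log2 values exist for 4 of the 10 genes and differed from log2 CPM computed here by at most 0.0884, and they were used for that check only.

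Tests on the counts used edgeR 4.0.16 (R 4.3.3): filterByExpr (minimum count 10, minimum total 15; 11517 genes kept), TMM, the quasi-likelihood F test of stiffness alone, and Benjamini-Hochberg adjustment over all kept genes. The SE is the log2 fold change divided by the root of F. CPM are TMM-scaled, and per-kilobase levels divide them by the exon union in GENCODE 29. For the family sum, 8 rows were replaced by 1 and the table was refitted. The replicate block was an alternative. Deviations from group means correlated at 0.41, 0.18 and 0.52 in same-numbered pairs, each above 0.1, which by the rule used here pairs the libraries. The differently numbered 500 Pa replicate 2 and 8000 Pa replicate 1 correlated at 0.20, above the 0.18 of the replicate 2 pair, and the labels name no shared day. The GC offset is a per-library lowess (span 0.3), with GC known for 95.5% of kept genes. Other alternatives were DESeq2 1.42.0, limma-voom 3.58.1, other scalings and filters, and leaving out libraries. The fits were also run on counts simulated from a model of replicate number, with each added fold change equal in every replicate. That run does not cover differences that change sign between replicates.

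Named were all 10 genes, up to 3 passing or 2 of smallest p per metal-related or neighbour list in each fit, and the 5 nearest profiles (pseudocount 1 CPM). The members and lists were chosen with earlier results of these data known. Value columns belonging to no sample numbered 0. Depth gave 3 counts as 0.160 to 0.361 CPM before TMM scaling.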

Additional observations from a re-analysis of the deposited data

How the results depend on the processing

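None of the tested members, and no gene of the metal-related lists, passed under any of 20 alternatives to the edgeR test of stiffness alone (0 called in each). For all tested genes the count was 0 with stiffness alone, 7 in DESeq2, 8 of 16894 with no filter, 61 with the replicate block, 42 in DESeq2 with the block, 87 with the block and GC offset, and 41 with the block and library size alone, a setting chosen after seeing the data. It was 0 to 1 with single libraries left out and 38, 81 and 12 with the block and without replicate 1, 2 or 3. The log2 fold change of the family sum was below 0 under all 20, from -1.11 to -0.58 with single libraries left out and from -1.37 to -0.31 with the block and 1 pair left out; with library size alone it was -0.74 and with the block and library size alone -0.61. The sign of MT2A, MT1X, MT1E and MTF1 was the same under all 20. MT1F, not tested without pair 1, ran from -0.77 to 0.0090 with single libraries left out, the latter without 500 Pa replicate 1. SLC30A1 ran from -0.24 to 0.33 with single libraries left out (-0.24 without 500 Pa replicate 3, -0.087 without 8000 Pa replicate 1) and from -0.27 to 0.37 with the block and 1 pair left out; with the block and GC offset it was -0.0060. The cause was not tested. The difference in the family's share of counts ran from -0.0315 to -0.0109 percentage points with single libraries left out. MT1F, MT1G and SLC30A1, with as few as 2 counts a library, are limited by depth, and 3 libraries a group by the spread between replicates.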
